A study of Homo sapiens with 9 samples.

Results

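The interferon regulatory factors (IRFs) were examined in ATAC-seq peak lists of HEK293T cells lacking IGF2BP1, IGF2BP2 or IGF2BP3. The members were IRF1, IRF2, IRF3, IRF4, IRF5, IRF7, IRF8 and IRF9, and the peaks examined were all those in the body of these genes or within 10 kb of either end on GRCh38. This rule took 44 of the 194414 peaks of the 4 lists, 12 from the control, 11 each from the IGF2BP1 and IGF2BP2 knockouts and 10 from IGF2BP3-KO. Where peaks of different lists overlapped they were joined, which gave 11 regions of the 71597 in the whole series.

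ATAC-seq marks DNA that the Tn5 transposase can reach. HEK293T is an established human embryonic kidney line that carries adenovirus DNA and a viral large T antigen, and the cells received no treatment beyond the gene editing. The control (labelled WT, made with a CRISPR/Cas9 guide that targets no mammalian gene) was sequenced as 2 libraries (batches 2 and 3). There were 3 libraries without IGF2BP1 (batches 1, 2 and 3) and 2 each without IGF2BP2 and IGF2BP3 (batches 2 and 3), so batch 1 held no control. Each knockout came from transient transfection of a plasmid with 3 guides and was represented by 1 clone, so genotype and clone cannot be told apart. The knockouts are written IGF2BP1-KO, IGF2BP2-KO and IGF2BP3-KO. The series title speaks of leukemia stem cells, whereas all libraries here came from HEK293T. 1 list of positions was deposited per group, so no spread between replicates and no test between groups could be computed, and the values below describe these 4 lists. A list records whether a peak was called and how wide it was, not how strong it was. The lists held 39194 peaks in the control, 50917 for IGF2BP1, 60262 for IGF2BP2 and 44041 for IGF2BP3, with median widths of 771, 834, 651 and 713 bp.

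IRFs are transcription factors that bind DNA through a conserved tryptophan-rich domain and recognise elements in the promoters of interferons and of interferon-stimulated genes. Nucleic acid sensors and Toll-like receptors activate IRF3, IRF5 and IRF7, which switch on the interferon genes. Interferon receptors then act through complexes in which IRF9 contacts DNA, while IRF1 and IRF2 activate and restrain overlapping targets. IRF4 and IRF8 are best known from lymphocytes, dendritic cells and macrophages.

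The RefSeq promoter windows of GRCh38.p14, 250 bases before a start site and 50 from it onwards, held 5 of the 8 members. They are shown for 4 because the accessible and inaccessible genes did not sort by CpG number: IRF1 and IRF9 lay entirely under a peak in all 4 lists, whereas no base of the IRF4 and IRF5 windows did in any list. Capitals mark matches, on either strand, to 6 kinds of motif. These were GAAANNGAA (a core of the interferon-stimulated response element), TTCNNNGAA (the interferon gamma activated site), GGGCGG (the GC box), CCAAT (the CCAAT box), TATAAA (the TATA box) and kappaB sites, searched as GGGAATTCC and as the variants with the letters GGAATTTCC and with GGGACTTTC. At 1 place each in IRF4 and IRF5, neighbouring GC boxes share a base, and no other matches overlap. The windows are chr5:132490724-132491023 on the minus strand for IRF1, chr14:24161015-24161314 on the plus strand for IRF9, chr6:391502-391801 on the plus strand for IRF4 and chr7:128937677-128937976 on the plus strand for IRF5, the last being the first of the 4 windows listed for that gene.
IRF1: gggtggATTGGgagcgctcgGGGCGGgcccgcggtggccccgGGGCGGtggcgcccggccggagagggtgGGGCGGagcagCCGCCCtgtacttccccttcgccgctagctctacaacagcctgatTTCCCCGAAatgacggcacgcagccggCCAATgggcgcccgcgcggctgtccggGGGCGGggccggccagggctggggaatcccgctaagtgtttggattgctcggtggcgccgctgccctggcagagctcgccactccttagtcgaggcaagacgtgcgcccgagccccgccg
IRF9: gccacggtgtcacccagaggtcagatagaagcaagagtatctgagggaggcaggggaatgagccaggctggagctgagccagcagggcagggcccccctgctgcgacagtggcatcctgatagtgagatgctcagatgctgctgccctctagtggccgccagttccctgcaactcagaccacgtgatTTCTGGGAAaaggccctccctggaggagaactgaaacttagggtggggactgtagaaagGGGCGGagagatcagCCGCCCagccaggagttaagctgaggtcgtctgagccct
IRF4: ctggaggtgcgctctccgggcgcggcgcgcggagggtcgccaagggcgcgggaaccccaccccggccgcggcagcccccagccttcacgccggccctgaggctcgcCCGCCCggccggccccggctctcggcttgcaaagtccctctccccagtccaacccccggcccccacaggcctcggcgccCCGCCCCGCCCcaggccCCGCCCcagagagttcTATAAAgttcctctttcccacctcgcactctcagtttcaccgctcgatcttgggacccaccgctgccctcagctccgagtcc
IRF5: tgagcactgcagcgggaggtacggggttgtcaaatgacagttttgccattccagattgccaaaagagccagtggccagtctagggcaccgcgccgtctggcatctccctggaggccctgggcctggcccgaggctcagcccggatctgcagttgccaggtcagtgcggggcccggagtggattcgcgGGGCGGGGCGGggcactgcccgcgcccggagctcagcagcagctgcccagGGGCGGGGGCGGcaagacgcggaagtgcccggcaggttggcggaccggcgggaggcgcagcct

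CpG dinucleotides, which are dense in promoters that are open in most tissues, were counted in each window. The IRF1 window held 36 CpGs, and 88.7% of the 1952 promoter windows within 2 CpGs of that number had their start under a control peak. IRF9 held 7 CpGs and was open in all lists, although 18.2% of the 2610 windows of like CpG number had their start under a control peak. In the opposite direction, the IRF4 window held 32 CpGs and was closed, against 87.4% open among 2356 like windows. The first IRF5 window held 25 CpGs (85.7% open among 2705) and the second 34 (87.8% open among 2173), and both were closed in every list. The other IRF5 windows, with 8 and 5 CpGs, and the windows of IRF8 that begin inside the gene, with 3 and 9, were in the range where 6.62 to 26.8% of windows were open, and none was under a peak.

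**Figure D1:**
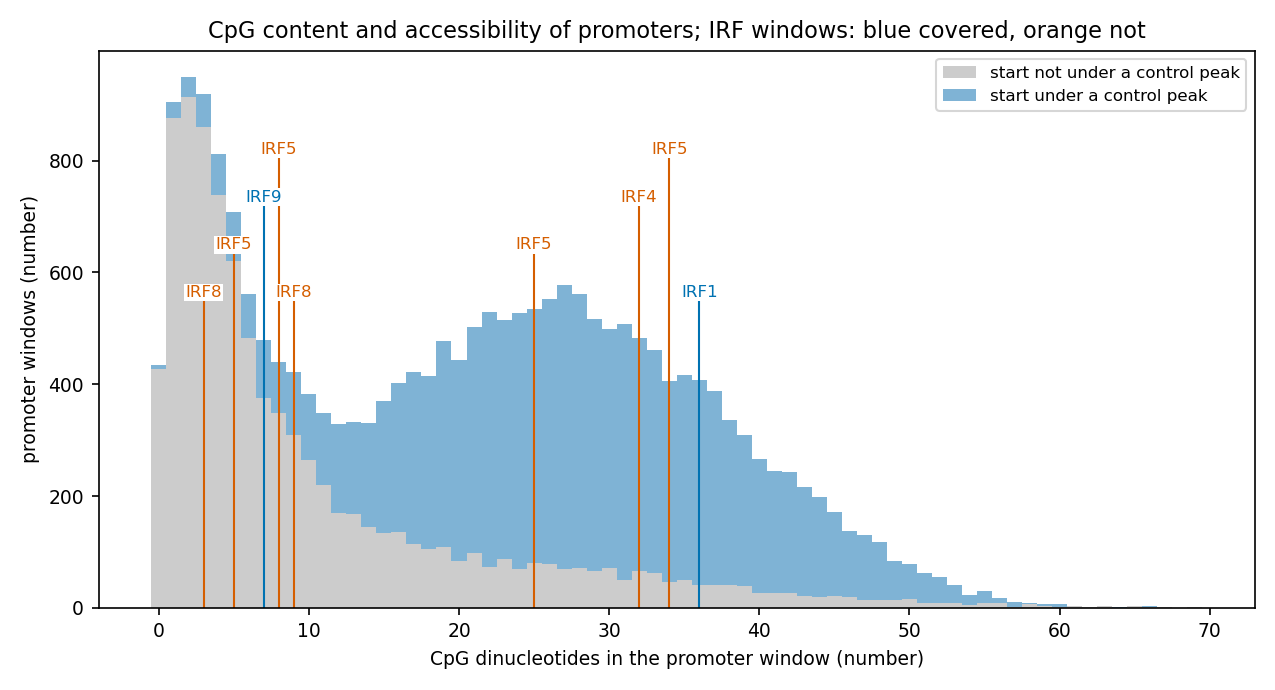
Number of CpG dinucleotides in the 300-base RefSeq promoter windows of protein-coding genes (x axis) against the number of windows (y axis), stacked by whether the start site lay under a control peak. Vertical lines mark the IRF windows, blue where the start was covered (IRF1 with 36 CpGs and IRF9 with 7) and orange where it was not, among them IRF4 with 32 and IRF5 with 25 and 34.

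Motif matches were searched in the same windows. IRF1 carried a TTCNNNGAA match, TTCCCCGAA, at -124 to -116 from the start, and IRF9 carried TTCTGGGAA at -63 to -55, while 6.81% of 22077 promoter windows held such a match. GAAANNGAA (7.09% of windows) was found at the last IRF5 start alone, on the other strand at -4 to 4. Matches to GGGCGG, present in 56.3% of windows, stood in IRF1, IRF4, IRF9 and the first 2 IRF5 windows. The IRF4 window held TATAAA at -32 to -27, a motif present in 9.50% of windows and found also in the third IRF5 window at -188 to -183. CCAAT (34.7% of windows) was found at 2 places in the IRF1 window. None of the kappaB strings listed above (1.03% of windows) was found in any IRF window. Other forms of the kappaB site were not searched, so a site of another form is not excluded. A match is a description of the letters only.

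A promoter was called open when a peak lay within 1 kb of the gene's start. The promoter table had no entry for IRF2, IRF3 and IRF7, for which either end of the gene was taken. Any other protein-coding gene without a strand was treated alike, so its open end need not be its start. By this rule 6 of the 8 genes were open in the control, 6 in IGF2BP1-KO, 5 in IGF2BP2-KO and 6 in IGF2BP3-KO. IRF1, IRF2, IRF3, IRF8 and IRF9 were open in all 4 lists, IRF4 and IRF5 in none, and IRF7 in all but IGF2BP2-KO. The IRF7 peak of IGF2BP3-KO was narrow and fell out when only the widest peaks of each list were kept. Among 20033 protein-coding genes, 61.7% were open in all 4 lists, 31.6% in none, and 6.77% differed between lists.

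**Figure D2:**
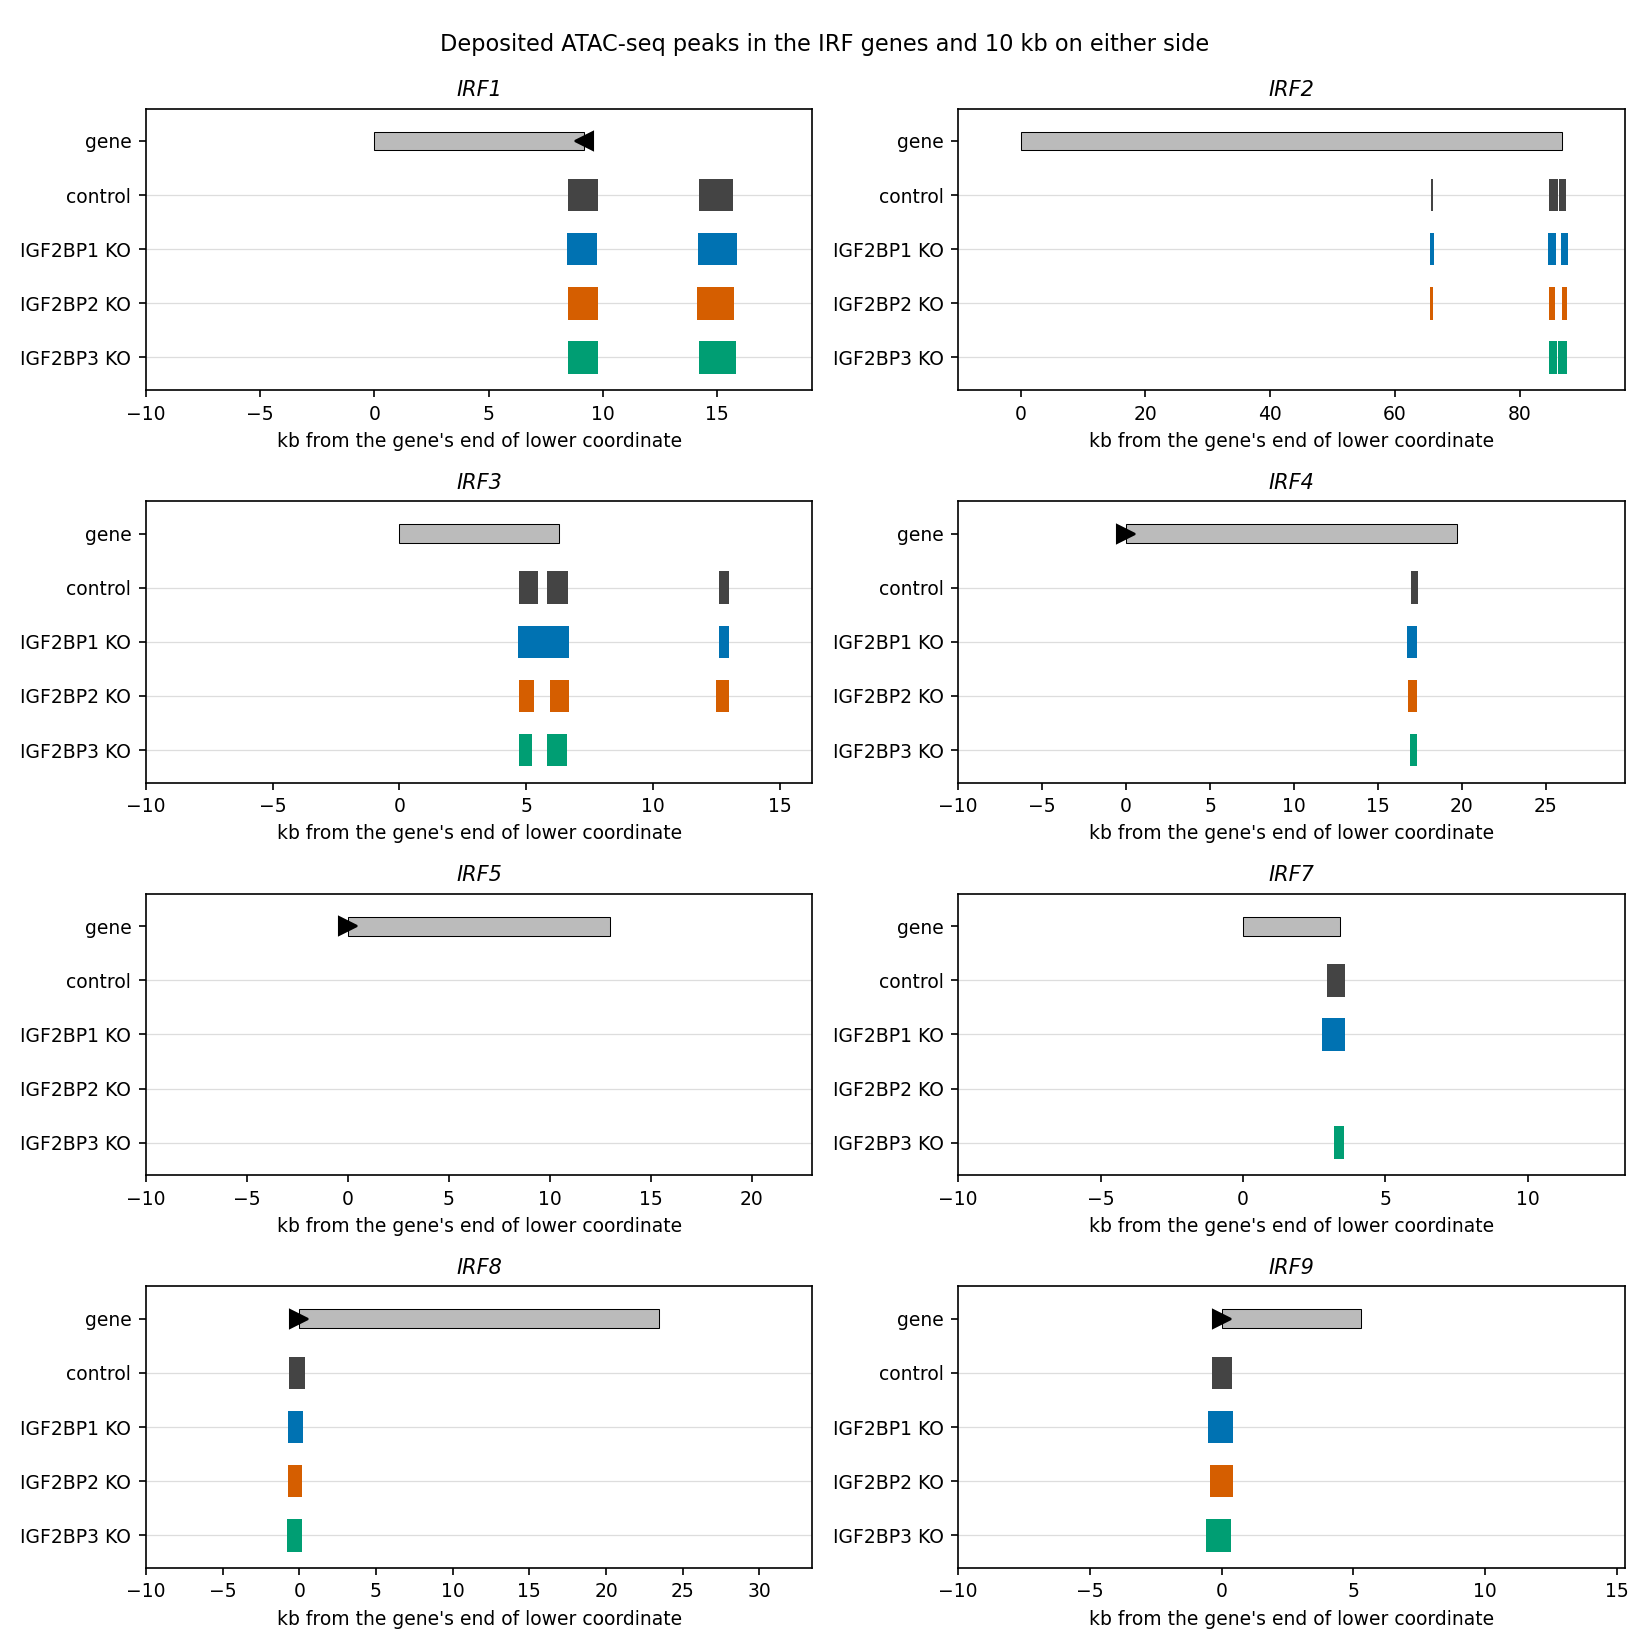
Peaks of the 4 lists (coloured bars, to scale) in each IRF gene (grey bar) and 10 kb on either side, with the x axis in kb from the gene's end of lower coordinate and an arrowhead at the start where the strand is given. IRF5 has no peak in any list, IRF4 has 1 peak inside the gene and none at its start, and IRF7 has no peak in IGF2BP2-KO.

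IRF3, the factor that the kinase TBK1 phosphorylates downstream of the sensors of viral RNA and DNA, spans chr19:49659572-49665857, and its end of higher coordinate lies inside BCL2L12, a BCL2 family gene that starts at 49665142. Control peaks stood at 49664270-49665028 (759 bp) and at 49665405-49666231 (827 bp), the latter over the gene end. In IGF2BP2-KO they were at 49664272-49664892 (621 bp) and 49665501-49666254 (754 bp), and in IGF2BP3-KO at 49664280-49664818 (539 bp) and 49665386-49666173 (788 bp). IGF2BP1-KO had a single peak of 2012 bp in their place, from 49664249 to 49666260, wider than 98.2% of its list. The end of the gene was thus covered in all 4 lists, and the gap between the peaks was bridged in 1.

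A narrow site lay inside BCL2L12, with its near edge 6322 bp beyond that end of IRF3 in the control. It measured 380 bp in the control (49672179-49672558), 394 bp in IGF2BP1-KO and 488 bp in IGF2BP2-KO, and IGF2BP3-KO had no peak there. The control peak was wider than 6.37% of its list. Of the 2764 control peaks within 50 bp of its width, 50.7% had no counterpart in IGF2BP3-KO.

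IRF7, the interferon-inducible factor that amplifies type I interferon production, spans chr11:612555-615950 between PHRF1 and CDHR5. Its only peak lay over the end of higher coordinate, at 615505-616130 (626 bp) in the control, 615321-616135 (815 bp) in IGF2BP1-KO and 615734-616111 (378 bp) in IGF2BP3-KO. IGF2BP2-KO had no peak within 10 kb of the gene, and its nearest peak to the gene was 22.7 kb away. The peak was thus called in 3 lists and was of low to middle width in each, at width percentiles of 32.9, 48.1 and 8.52 in the order given. Each list was also cut to its 39194 widest peaks, the length of the control list, which thus stayed whole. The narrowest peaks kept measured 215 bp in the control and 612, 541 and 401 bp in the knockouts of IGF2BP1, IGF2BP2 and IGF2BP3. The 378 bp IRF7 peak of IGF2BP3-KO, called in the full list, was removed by its width. Absence from IGF2BP2-KO alone therefore holds for the full lists only.

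A promoter peak of the control was absent from IGF2BP2-KO at 2.1% of protein-coding genes open in the control, from IGF2BP1-KO at 1.15% and from IGF2BP3-KO at 2.29%. Losses among the IRF genes were 1 of 6, 0 of 6 and 0 of 6 in the same order. Chromosome 11 as a whole held a lower share of the IGF2BP2 list, 3.39% of its peaks against 4.77% of control peaks. In number it held more, 2042 peaks against 1870, as the IGF2BP2 list is longer. On that chromosome 14.6% of control peaks had no counterpart in IGF2BP2-KO, against 8.8% over the whole control list. Of 216 control peaks on chromosome 11 within 50 bp of the width of the IRF7 peak, 43 (19.9%) were missing from IGF2BP2-KO, against 493 of 4472 such peaks genome-wide. Among control peaks of like width within 1 kb of a gene start, 51 of 430 (11.9%) were missing from IGF2BP2-KO. On chromosome 11 alone, 6 of 19 such start peaks were missing. Genes whose promoter was missing from IGF2BP2-KO alone numbered 147, and 21 of them (14.3%) were on chromosome 11, which held 5.74% of the genes open in the other 3 lists. The part of the chromosome-wide difference in the IRF7 result was not tested. Within 0.1 Mb of IRF7, 1 of 8 control peaks had no counterpart in IGF2BP2-KO, the IRF7 peak itself, and 1 of 8 had none in IGF2BP1-KO. Within 0.5 Mb, 10 of 46 control peaks were missing from IGF2BP2-KO, 8 from IGF2BP1-KO and 5 from IGF2BP3-KO. Within 1 Mb, 15 of 62 were missing from IGF2BP2-KO, 13 from IGF2BP1-KO and 10 from IGF2BP3-KO, so control peaks other than that of IRF7 were also missing around it. Counting all its peaks, IGF2BP2-KO had 10, 46 and 59 within 0.1, 0.5 and 1 Mb, against 8, 46 and 62 in the control.

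IRF5, which acts downstream of Toll-like receptors in myeloid cells, spans chr7:128937032-128950038, with TNPO3 4147 bp beyond its end. No list had a peak in the gene or within 10 kb. The nearest peaks were 26.7 kb away in the control, 16.1 kb in IGF2BP1-KO and 26.8 kb in both other knockouts. Of all protein-coding genes, 10.5% had no peak within 10 kb in any list, and IRF5 was the only IRF gene among them.

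IRF9 spans chr14:24161265-24166565 and starts 610 bp beyond the end of RNF31, a gene of the linear ubiquitin chain assembly complex. The peak over its start measured 757 bp in the control (24160909-24161665), 962 bp in IGF2BP1-KO, 872 bp in IGF2BP2-KO and 963 bp in IGF2BP3-KO. It was wider in each knockout than in the control, by 1.27, 1.15 and 1.27 times. Among the 29686 regions held by all 4 lists, the middle ratio of bases under knockout peaks to bases under control peaks was 1.09, 0.997 and 0.979 in the same order, and the IRF9 ratios stood at percentiles 77.5, 80.5 and 90.4.

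IRF1, an early target of interferon gamma, spans chr5:132481609-132490773. Its start lay under peaks of 1329 bp in the control (132490072-132491400), 1324 bp in IGF2BP1-KO, 1293 bp in IGF2BP2-KO and 1317 bp in IGF2BP3-KO. These widths lay within 3% of the control, at ratios of 0.996, 0.973 and 0.991. A second and wider peak lay upstream of the start and outside annotated genes, at 132495795-132497318 (1524 bp) in the control and with 1740, 1610 and 1611 bp in the knockouts of IGF2BP1, IGF2BP2 and IGF2BP3. Its near edge was 5022 bp from the start in the control. It was among the widest peaks of every list, with percentiles from 93.2 to 97.0.

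IRF2, which competes with IRF1 for its sites, is the longest of the 8 genes at 86.8 kb (chr4:184387729-184474550), and the noncoding gene IRF2-DT begins 252 bp beyond its end of higher coordinate. The peak at that end spanned 184474102-184475168 (1067 bp) in the control, 184474317-184475463 (1147 bp) in IGF2BP1-KO, 184474564-184475351 (788 bp) in IGF2BP2-KO and 184473864-184475359 (1496 bp) in IGF2BP3-KO. Both the narrowest and the widest version were in knockouts. In IGF2BP2-KO the peak began 14 bp beyond the gene and covered the start of IRF2-DT but no base of IRF2. A neighbouring region inside the gene measured 1356 bp in the control and 1240, 894 and 1414 bp in the knockouts of IGF2BP1, IGF2BP2 and IGF2BP3. In IGF2BP2-KO these regions thus held 0.739 and 0.659 of the control bases, at percentiles 8.78 and 4.47 of the ratios over all regions in 4 lists, and in IGF2BP3-KO the end region held 1.40 times the control bases, at percentile 94.6.

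A further site inside IRF2, 20778 bp from that end in the control, was narrow. It measured 309 bp in the control (184453464-184453772), 686 bp in IGF2BP1-KO and 388 bp in IGF2BP2-KO, and IGF2BP3-KO had no peak there. The control peak was wider than 1.83% of its list. Of the 1805 control peaks within 50 bp of its width, 60.2% had no counterpart in IGF2BP3-KO.

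IRF4, a regulator of plasma cell and lymphocyte differentiation, spans chr6:391752-411443. Its start was without a peak in every list, but a narrow peak inside the gene was in all of them, at 408699-409112 (414 bp) in the control and with 599, 528 and 463 bp in the knockouts of IGF2BP1, IGF2BP2 and IGF2BP3. In the control its near edge was 16947 bp from the start. The peak was narrow for its list everywhere, at percentiles 8.88, 21.7, 32.7 and 17.5, and was wider than in the control in each knockout. Its ratios to the control stood at percentiles 88.8, 89.7 and 78.4 of those over all regions in 4 lists. Among 6325 protein-coding genes closed at the start in all 4 lists, 26.8% likewise had a peak in the gene body in every list.

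IRF8, a factor of macrophage and dendritic cell development, spans chr16:85899162-85922609. Its start lay under a peak of 1028 bp in the control (85898503-85899530) and of 972, 918 and 973 bp in the knockouts of IGF2BP1, IGF2BP2 and IGF2BP3. The widths lay between 0.893 and 0.946 of the control. These ratios stood at percentiles 14.1, 26.3 and 42.3, in the same order, of those over all regions in 4 lists. None of the 4 lists had a second peak in the gene or within 50 kb. Of 12351 protein-coding genes open in all 4 lists, 1.89% had a single peak within 50 kb in each list. The open IRF8 start was not accompanied by blood cell markers in general. Of 9 such markers 1 was open in the control, SPI1, at an end of the gene, and PTPRC and CD14 were closed in every list, while CD3E was open in IGF2BP1-KO. Of 9 kidney and neural markers of HEK293T, 5 were open in the control, and PAX2, PAX8 and SOX11 were closed in every list. Over all protein-coding genes 64.2% were open in the control, so the HEK293T markers did not stand above that share.

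**Figure D3:**
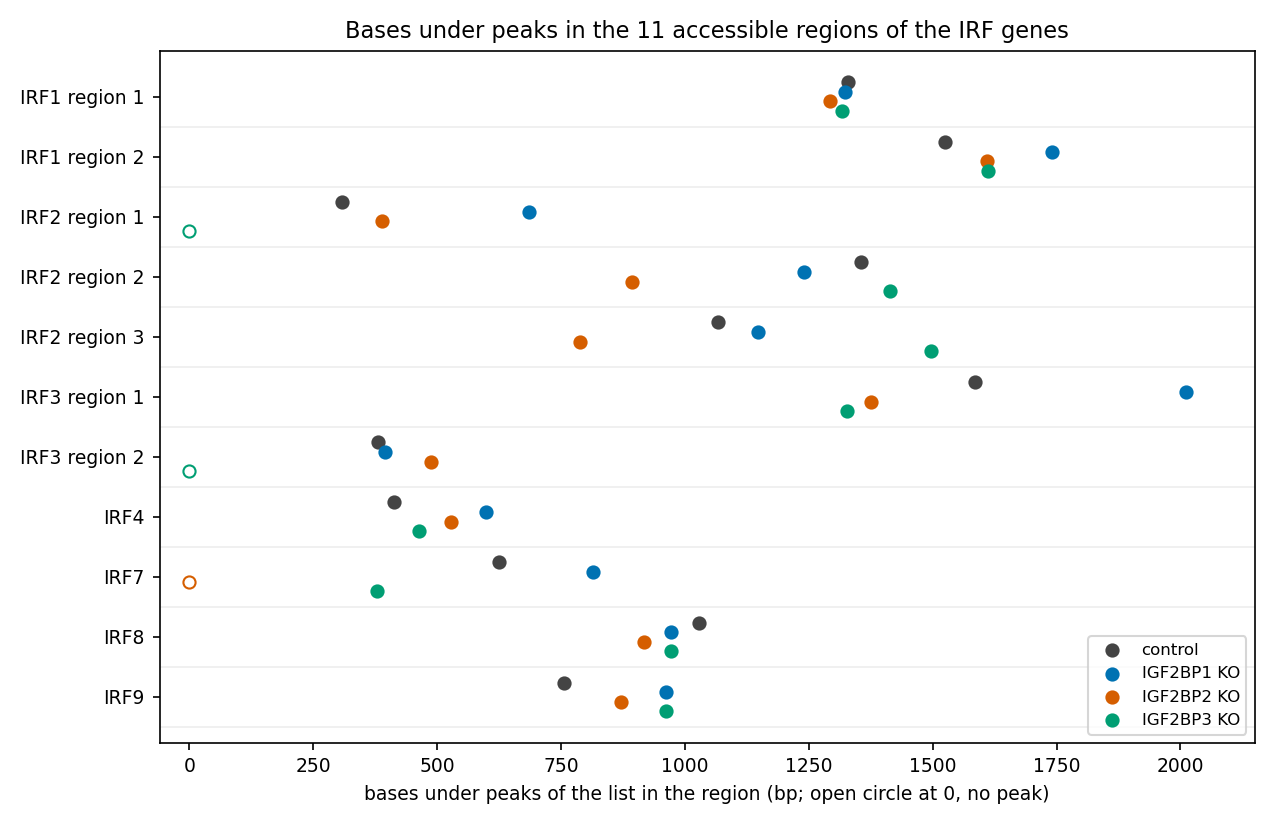
Bases under peaks of each list (x axis, bp) in the 11 regions of the IRF genes (y axis, numbered by coordinate within a gene), with open circles at 0 where a list had no peak. The IRF1 start (region 1) varies least between lists, IRF2 regions 2 and 3 are lowest in IGF2BP2-KO, and the 3 regions with an open circle are each missing from 1 knockout.

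Over the whole family, 8 of the 11 regions (72.7%) were in all 4 full lists and the other 3 were each missing from 1 knockout. These counts depend on whether narrow knockout peaks are kept. Among the 39194 widest peaks of each list, the site in BCL2L12 was missing from every knockout. The site inside IRF4 was then missing from IGF2BP1-KO and IGF2BP2-KO. The narrow site inside IRF2 and the IRF7 peak were missing from IGF2BP2-KO and IGF2BP3-KO. The cut left the control list whole. Absences beyond those of the full lists were of called knockout peaks too narrow for the cut. In the full lists, of 44914 regions within 10 kb of a protein-coding gene, 48.9% were in all 4 lists and 23.6% in 1 list. The same share for regions at gene starts was not computed. Counted by gene, 61.7% of promoters were open in all 4 lists and 6.77% differed between lists. Knockout peaks without a control counterpart made up 31.2% of the IGF2BP1 list, 40.2% of the IGF2BP2 list and 27.2% of the IGF2BP3 list. At the IRF genes there were 0 such peaks, of 11, 11 and 10. Among knockout peaks within 10 kb of a protein-coding gene the shares were 25.7%, 32.2% and 20.4%, and among those within 1 kb of a gene start they were 4.89%, 5.82% and 4.36%. The 0 at the IRF genes is thus set beside a high share for all gene neighbourhoods and a low one for promoters, where most IRF peaks lay.

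**Figure D4:**
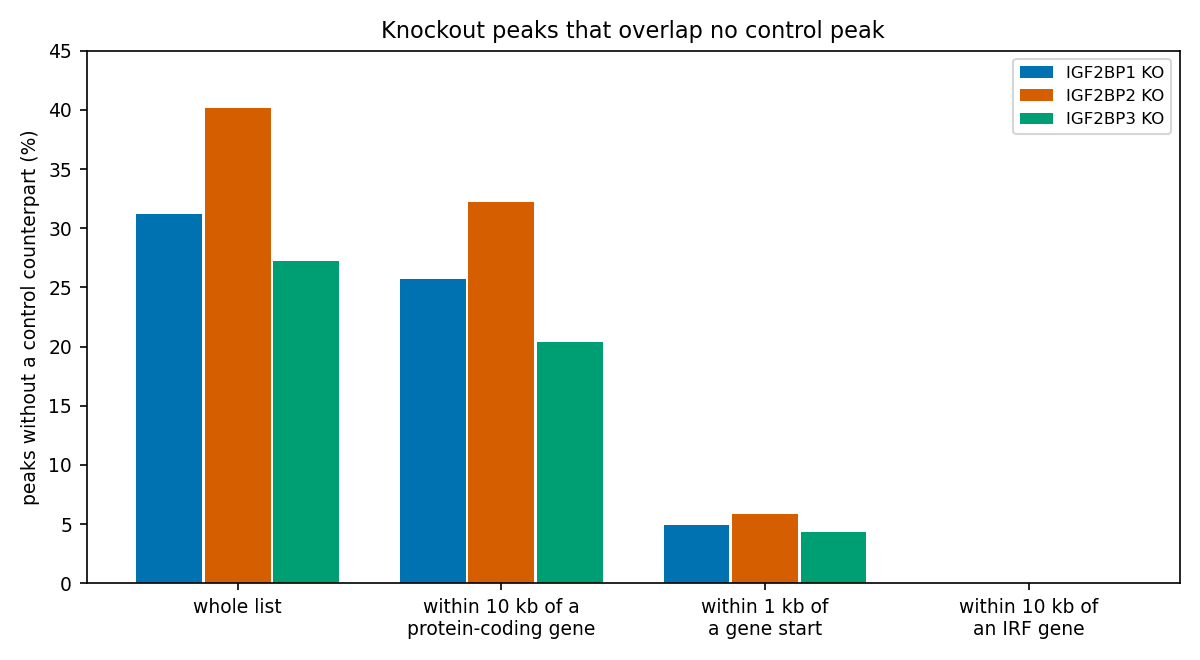
Share of the peaks of each knockout list that overlap no control peak (y axis, %), for the whole list, for peaks within 10 kb of a protein-coding gene, within 1 kb of a gene start, and within 10 kb of an IRF gene, where each of the 3 bars is at 0.

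In the opposite direction, control peaks without a counterpart were 0 of 12 at the IRF genes in IGF2BP1-KO (10.1% of the whole control list), 1 of 12 in IGF2BP2-KO (8.8%) and 2 of 12 in IGF2BP3-KO (18.5%). Among control peaks within 10 kb of a protein-coding gene the shares were 8.87%, 8.30% and 16.7% in the same order. Among those within 1 kb of a gene start they were 1.78%, 2.83% and 2.86%. No IRF promoter was gained, although 7.38%, 7.9% and 6.06% of the protein-coding genes without a control promoter peak had one in the knockouts of IGF2BP1, IGF2BP2 and IGF2BP3, the IRF genes at stake being IRF4 and IRF5. Bases under peaks in the IRF neighbourhoods summed to 10376 in the control, 11891 in IGF2BP1-KO, 9154 in IGF2BP2-KO and 9942 in IGF2BP3-KO. These were 1.15, 0.882 and 0.958 times the control, where the peaks within 1 kb of any gene start covered 1.13, 0.995 and 1.00 times the control bases, those within 10 kb of any protein-coding gene 1.31, 1.20 and 1.01 times and the whole lists 1.40, 1.33 and 1.06 times. The 3 comparisons share 1 control list.

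The genes that act before, with and after the IRFs were examined by the same rule. Of 59 such genes, 41 were open in all 4 lists, 15 were closed in all, and 3 differed, against shares of 61.7%, 31.6% and 6.77% over all protein-coding genes. Genes without a strand counted as open with a peak at either end. Of 18 adaptors, sensors and kinases 10 were open in all lists and 7 in none, the latter including STING1, CGAS and TICAM1. Of 19 partners and regulators 18 were open in all lists, among them JAK1 and TYK2, and BATF was closed. Of 22 targets 13 were open in all lists and 7 in none, among them IFNB1 and CXCL10. The genes that differed were MYD88, ISG15 and GBP1.

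MYD88, the adaptor of most Toll-like receptors, was the 1 gene of that list with the pattern of IRF7 over the 4 lists, absent from IGF2BP2-KO alone. The match rests on the window. IGF2BP2-KO had a peak of 902 bp at chr3:38136757-38137658 that overlapped the control peak of 989 bp but ended 1003 bp from the start, where the control peak ended 987 bp from it. ISG15, a ubiquitin-like interferon target, had a start peak of 898 bp in IGF2BP2-KO and of 539 bp in IGF2BP3-KO and none in the other 2 lists. GBP1, an interferon-induced GTPase, had one of 912 bp in IGF2BP1-KO and of 1315 bp in IGF2BP2-KO and none in the other 2.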

How the data were processed

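Each group of HEK293T ATAC-seq libraries was deposited as 1 peak list of chromosome, start and end (the deposited coordinates are in base pairs, with no height, score or p-value). Per the submitters' processing notes, fastp 0.24.1, BWA 0.7.17, MACS2 3.0.0, bedtools and the build GRCh38 were used. Their settings, the peak threshold and the way libraries were combined are not given in the sources used here. Depth is unknown. The lists differ in length and peak width, which affects every count.

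Starts were converted to count from 1. Genes came from the RefSeq table of GRCh38.p14 (20033 protein-coding genes with coordinates) and the strand from the RefSeq promoter table (15841 of them). Where no strand was given, both gene ends counted as starts. Exons and UTRs were not determined. Peaks with at least 1 bp in common were counterparts. A width percentile is the share of narrower peaks in the same list, ties counted at the midpoint. Python 3.11.15, numpy 2.4.6 and pandas 2.3.3 were used, and the overlap functions were tested on simulated data. All 8 members were named, with the pathway genes whose promoter differed between lists. Further pathway and marker genes were named as examples after their values were seen. The members and lists were chosen with earlier results of these data known. Alternatives covered the promoter window, the flank, the overlap rule, list length and merging of near peaks.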

Additional observations from a re-analysis of the deposited data

How the results depend on the processing

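Of 67 recomputed values, 59 stayed within 1.5 times the reported one and 8 did not. With 50 kb on each side, the peaks numbered 36 in the control and 36, 40 and 32 in the knockouts of IGF2BP1, IGF2BP2 and IGF2BP3. Where a counterpart had to share at least 50% of both peaks, 2 IGF2BP1 knockout peaks had none (the bridged IRF3 peak and the site inside IRF2) and 3 control peaks had none in IGF2BP1-KO. With the 39194 widest peaks of each list, control peaks without a counterpart rose to 2 in IGF2BP1-KO, 4 in IGF2BP2-KO and 3 in IGF2BP3-KO. The rise came from narrow knockout peaks that the cut removed, while the control list was not cut. Open IRF promoters in IGF2BP3-KO then numbered 5, as its narrow IRF7 peak was among those removed. Where the peak had to cover the start itself, 4 IRF genes were open in IGF2BP2-KO, without IRF2 and IRF7. IRF7 was closed in IGF2BP2-KO, and IRF4 and IRF5 were closed in all lists, under each of the promoter settings. No paired analysis was possible because each group was deposited as 1 list, and for the same reason no library could be left out.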

Other observations

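Accessible sites further from the IRF genes differed widely between members. Between 10 and 50 kb from the gene, IRF9 had 8 peaks in the control, 8 in IGF2BP1-KO, 9 in IGF2BP2-KO and 8 in IGF2BP3-KO, whereas IRF8 had 0 in each list. IRF4 had 1 in each list. IRF5, without a peak nearer by, had 2 in the control and 3, 1 and 1 in the knockouts of IGF2BP1, IGF2BP2 and IGF2BP3. IRF7 had 3 in the control and 3, 5 and 4 in the same knockouts. The middle number of peaks within 50 kb of a protein-coding gene was 4 in the control, 4 in IGF2BP1-KO, 5 in IGF2BP2-KO and 4 in IGF2BP3-KO, and for the IRF genes it was 4.5, 4.5, 5.5 and 4.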
